A study of Homo sapiens with 43 samples.

Results

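In SUDHL5 cells, 223 regions of the genome held a CDK9 peak in every one of 8 chromatin immunoprecipitation sequencing (ChIP-seq) peak lists, with and without the drug CDK-TCIP1. They were found by merging the peaks of the 8 lists wherever they overlapped by at least 1 bp on chromosomes 1 to 22 and X, which gave 17265 regions, and keeping those with a peak in all 8 lists (1.29%). These regions are called constant CDK9 regions here. Their presence in the 8 lists, and their CDK9 peak widths in SUDHL5, chose them or share lists with the choice, so those values are descriptions and carry no test.

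CDK9 was immunoprecipitated from SUDHL5 with the antibodies ab239364 and CST2316S, after 2 h of 30 nM CDK-TCIP1 or of 0.1% DMSO, with 2 lists in each of these 4 groups. The rule did not use 4 lists of CDK9 from KARPAS422 cells, made with CST2316S after 2 h of 30 nM CDK-TCIP1 (2 lists) or 0.1% DMSO (2 lists). It also did not use 21 lists of RNA polymerase II from SUDHL5. For the polymerase phosphorylated on serine 5 (Ser5P) or serine 2 (Ser2P) of its C-terminal repeats there were 2 lists each at 2 h and 4 h of 30 nM CDK-TCIP1 and 2 of 0.1% DMSO, and for total polymerase (Pol II) 3 lists in each such group. The polymerase DMSO lists were all made at 4 h and serve both times, so at 2 h treatment and time differ together. Nothing in the labels says that lists of a group came from separate cultures, so the spread between them may be technical.

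Both SUDHL5 and KARPAS422 were established from diffuse large B-cell lymphomas, tumours of mature B cells. CDK9 is the kinase of P-TEFb, the factor that releases RNA polymerase II from its pause just after the gene start; the polymerase carries Ser5P near starts and Ser2P further into genes. BCL6 is a DNA-binding repressor that holds B cells in the germinal-centre state, and it represses its own gene. CDK-TCIP1 is a bivalent molecule that binds CDK9 at one end and BCL6 at the other, so that CDK9 can be brought to where BCL6 sits on DNA.

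The starts of genes that stand for the main groups are shown first, so that the values below can be tied to DNA. Each line is the 250 bases before a RefSeq gene start in GRCh38.p14, the build that hg38 names, written 5′ to 3′ on the gene's strand. BCL6, RHOH, CXCR4 and H2BC12 have several starts at their regions. For these the start with most of the motifs marked below was printed, so their matches were selected for and other starts may lack them. Capitals mark every match, on either strand, to TTCNNNGAA (the core shared by BCL6 and STAT factors), ATGCAAAT (the octamer), TATAAA (the TATA box) and CCAAT (the NFY element). BCL6 lies at chr3:187745469-187745718 on the minus strand, RHOH at chr4:40192709-40192958 on the plus strand, PAX5 at chr9:37034269-37034518 on the minus strand, CXCR4 at chr2:136118150-136118399 on the minus strand and ZNF608 at chr5:124748825-124749074 on the minus strand. These 5 are B-cell and growth examples; 3 histone genes follow them, H2BC12 at chr6:27146859-27147108 and H2AC17 at chr6:27893186-27893435, both on the minus strand, and H1-4 at chr6:26156079-26156328 on the plus strand.
BCL6: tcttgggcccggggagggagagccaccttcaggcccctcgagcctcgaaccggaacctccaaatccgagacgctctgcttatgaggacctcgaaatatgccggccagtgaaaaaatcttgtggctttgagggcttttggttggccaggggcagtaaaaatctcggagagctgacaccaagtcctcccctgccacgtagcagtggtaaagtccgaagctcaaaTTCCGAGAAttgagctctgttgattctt
RHOH: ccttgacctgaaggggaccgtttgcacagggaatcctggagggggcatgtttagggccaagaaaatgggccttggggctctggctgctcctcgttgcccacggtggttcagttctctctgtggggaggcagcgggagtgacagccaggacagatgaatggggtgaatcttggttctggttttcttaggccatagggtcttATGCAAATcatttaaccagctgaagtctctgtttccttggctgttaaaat
PAX5: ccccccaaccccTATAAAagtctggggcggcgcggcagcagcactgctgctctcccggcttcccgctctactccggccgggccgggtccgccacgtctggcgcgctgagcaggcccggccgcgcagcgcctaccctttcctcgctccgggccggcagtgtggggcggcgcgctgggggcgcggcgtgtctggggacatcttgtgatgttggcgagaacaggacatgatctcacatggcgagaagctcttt
CXCR4: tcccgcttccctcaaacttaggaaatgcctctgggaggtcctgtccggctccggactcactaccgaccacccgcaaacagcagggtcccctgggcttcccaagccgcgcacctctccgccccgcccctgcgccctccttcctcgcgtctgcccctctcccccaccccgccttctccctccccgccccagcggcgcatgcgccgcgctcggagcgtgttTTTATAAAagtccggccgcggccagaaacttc
ZNF608: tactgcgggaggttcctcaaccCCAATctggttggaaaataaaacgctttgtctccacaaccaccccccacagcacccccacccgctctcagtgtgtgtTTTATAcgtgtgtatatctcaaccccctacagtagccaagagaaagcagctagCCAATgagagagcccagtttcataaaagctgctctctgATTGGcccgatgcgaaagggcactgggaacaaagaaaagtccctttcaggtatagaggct
H2BC12: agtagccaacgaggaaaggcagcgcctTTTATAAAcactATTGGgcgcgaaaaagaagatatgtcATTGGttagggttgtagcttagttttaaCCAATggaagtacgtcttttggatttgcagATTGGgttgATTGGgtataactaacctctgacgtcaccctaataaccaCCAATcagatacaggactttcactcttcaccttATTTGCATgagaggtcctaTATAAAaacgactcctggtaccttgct
H2AC17: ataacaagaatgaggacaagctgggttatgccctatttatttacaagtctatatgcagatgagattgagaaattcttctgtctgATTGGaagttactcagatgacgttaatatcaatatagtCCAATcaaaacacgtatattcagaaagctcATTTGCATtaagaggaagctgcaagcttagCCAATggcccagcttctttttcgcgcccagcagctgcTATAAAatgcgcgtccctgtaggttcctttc
H1-4: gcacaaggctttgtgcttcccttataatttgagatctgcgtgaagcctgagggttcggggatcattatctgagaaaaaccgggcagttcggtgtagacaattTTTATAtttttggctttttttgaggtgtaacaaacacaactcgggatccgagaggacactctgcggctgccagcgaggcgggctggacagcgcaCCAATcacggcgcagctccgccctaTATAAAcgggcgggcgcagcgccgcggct

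The BCL6 sequence holds 1 core match, from 28 to 20 bases before the start, and the RHOH sequence 1 octamer, from 50 to 43 bases before it. H2BC12 and H2AC17 hold an octamer, a TATA box within 31 bases of the start and several CCAAT elements, and H1-4 holds a TATA box and CCAAT but no octamer. Just past the start of BCL6, at chr3:187745419-187745442 on the minus strand, lies the only exact match to TTCCTAGAA, on the other strand, among the 188 coding-gene windows at constant regions (64 of 22043 windows of other coding genes that are no histone genes held one). Its first base is number 37, counting the start as 1, and capitals mark it within 10 bases before and 5 after.
BCL6 match: tgcaagaagtTTCTAGGAAaggcc

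A match is a description of letters, not of a bound site. Windows from 250 bases before to 50 after each start were searched on both strands. The octamer was in 10.1% of the 188 coding-gene windows at constant regions and in 1.65% of all 22132 coding-gene windows, TATAAA in 21.8% and 9.46%, CCAAT in 46.8% and 34.6%, and TTCNNNGAA in 4.79% and 6.79%. The octamers lay mostly at histone genes. The octamer was found in 17 of 38 histone windows at constant regions (44.7%), against 31.5% of all 89 histone windows, and in 2 of the 150 other windows (1.33%), against 1.53% of all others. TATAAA likewise was in 73.7% of the histone windows at constant regions, against 56.2% of all histone windows. It was in 8.67% of the other windows at constant regions, against 9.27% of all others. Many histone windows are near copies of one another, so they are not independent.

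Before the values, 2 lists need naming. The first DMSO list of ab239364 held 915 peaks where the second held 3508, and it decided membership more than any other list: of 314 regions with a peak in 7 of the 8 lists, 210 lacked only this one, and without it 433 regions would be constant. The first Pol II list of 4 h CDK-TCIP1 held 138 peaks, against 3196 and 1572 in the other two of its group. The SUDHL5 CDK9 lists held 9262 to 11148 peaks after CDK-TCIP1 and 915 to 3508 after DMSO, so lists of unequal length enter every CDK9 comparison in this line. The lists carry no read totals, so sequencing depth is unknown and only the number of peaks can be set beside a value. Ser5P peaks in both DMSO lists marked the starts of the B-cell genes MS4A1, CD79A, CD79B, PAX5 and CD22, of 2 of 6 T-cell genes, of 1 of 6 myeloid genes, of 2 of 5 plasma-cell genes and of none of the 4 epithelial and 2 liver genes.

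The constant regions were long. Their lengths ran from 1.001 to 63.968 kb with a median of 5.466 kb, where the median of all 17265 regions was 0.777 kb, and together they spanned 1491 kb. The regions just outside the rule, with a peak in 7 lists, had a median of 3.99 kb, and the 1976 regions with a peak in all 4 treated lists and no DMSO list had 2.03 kb. A long region has more room for a peak, so length and presence go together. In 196 of the 223 regions some bases were covered in all 8 lists, with a median of 483 bp and at most 4858 bp. In the other 27 the lists' peaks sat in different places of one merged region.

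More than any other place, constant regions held the start of a coding gene. With 1 kb allowed around a start, 124 regions (55.6%) held a coding-gene start, against 34.6% of all merged regions and 26.4% of the treated-only regions. Genes without a start window had both of their ends counted as starts, here and in all counts of starts and places below. In 109 of the 124 regions a start of known strand was held. Longer regions have more room for a start, so these shares are not set at equal length. A coding-gene start lay within 1 kb of the best CDK9 summit in 92 constant regions. A further 28 held only the start of a long noncoding RNA, 36 lay inside a coding gene away from its start and 35 between coding genes. Immunoglobulin and T-cell receptor gene segments were not counted as genes, so regions between coding genes may hold them. The starts of 157 coding genes were held, which is 0.786% of 19974. Chromosome 6 held 32 regions, and 58 regions fell into 12 clusters of 3 or more neighbours within 1 Mb. The largest cluster, chr6:26020279-27895692, held 19 regions over the histone genes, and the next, chr3:186782635-188250654, held 7 from EIF4A2 through BCL6 to LPP.

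Histone genes were the group most often present: 40 of the 89 in the list had their start in a constant region, in 21 regions (all coding genes, 0.786%). Histones package DNA, and the replication-dependent genes stand close together in clusters, so 1 region often held 2 or 3 starts. Near-identical copies can share reads, and which copy a peak belongs to is uncertain where the counting could split them. B-cell identity and germinal-centre genes followed with 12 of 46: PAX5, EBF1, TCF3, IKZF3 (with 2 regions), BACH2, FOXP1 and MYBL1, which are transcription factors, S1PR2 and CXCR4, which are receptors that place B cells in the follicle, CD79A, a signalling chain of the B-cell receptor, BCL7A, a chromatin remodeller subunit, and RHOH, a signalling protein of blood cells. IKZF3 had no start window, and its 2 regions lie at opposite ends of the gene, so 1 of them is not at its start. Splicing and RNA-binding factors had 11 of 46, namely SRSF1, SRSF2, SRSF10, HNRNPA2B1, HNRNPA3, HNRNPF, HNRNPH3, HNRNPK, HNRNPUL1, DDX17 and NCL.

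Smaller counts came from the other lists. Of the small RNA host and noncoding RNA genes 5 of 42 were held (SNHG3, SNHG19, SNHG25, MALAT1 and NEAT1), of the ribosomal protein genes 4 of 84 (among them RPLP0, RPS15 and RPL13A), of known BCL6 targets 3 of 23 (BCL6, CXCR4 and CD69), and of BCL6 corepressors 2 of 16 (BCOR and TBL1XR1). Immediate-early genes had 2 of 30 (ZFP36L1 and SGK1) and cell death genes 1 of 30, the survival gene MCL1. None was held of 27 genes of P-TEFb, 7SK and the super elongation complex, of 22 cell-cycle arrest and p53 genes, of 15 NF-kB genes or of 12 heat shock chaperones.

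Although present in every list, the regions were covered over more bases after CDK-TCIP1 than after DMSO. The width of a region in a list is the number of its bases under peaks of that list. With ab239364 the mean width per region was 3.85 and 5.27 kb in the CDK-TCIP1 lists, against 0.955 and 1.49 kb in the DMSO lists (4.56 ± 1.00 and 1.22 ± 0.38 kb, SD, n = 2 each, 3.77-fold). With CST2316S it was 6.16 and 6.24 kb after CDK-TCIP1, against 2.79 and 2.58 kb after DMSO (6.20 ± 0.054 and 2.69 ± 0.147 kb, SD, n = 2 each, 2.31-fold). Neither pair of groups overlapped. A fold or ratio of mean cover over regions, here and for KARPAS422 and polymerase below, is the ratio of the geometric means over the lists of each group. Over all 17265 regions, most of which had no DMSO peak, the same ratios were 9.11 and 10.96, and over the regions with a peak in 7 lists 7.25 and 3.63.

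**Figure D1:**
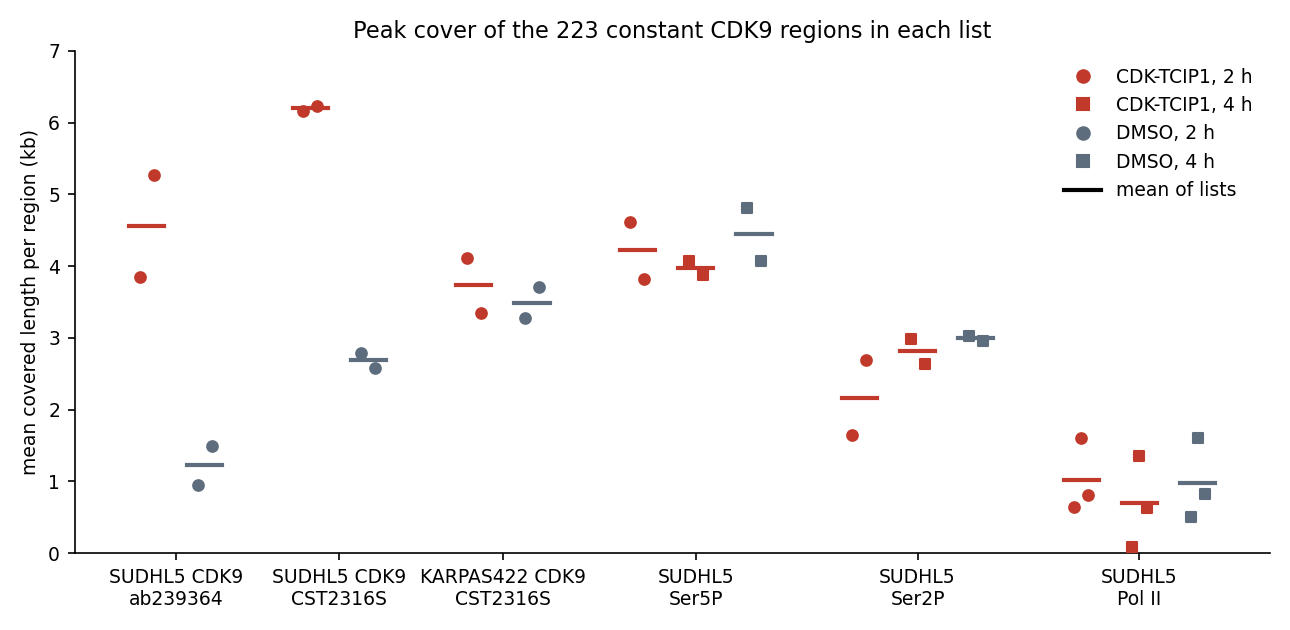
Mean covered length per constant region (kb, vertical axis) in each of the 33 lists, 1 point per list, grouped by target and antibody, with CDK-TCIP1 left of DMSO and a bar at the mean of a group. The SUDHL5 CDK9 groups stand apart, at 3.85 to 6.24 kb after CDK-TCIP1 and 0.955 to 2.79 kb after DMSO, while the KARPAS422 groups overlap between 3.27 and 4.11 kb.

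A region was called wider where both treated lists exceeded both DMSO lists. That held for 214 of 223 regions with ab239364 (all regions with a peak in any of these lists, 45.8%; regions with a peak in all 4, 82.0%) and for 213 with CST2316S (58.4% and 96.9%). None was called narrower with either antibody (background 0.0247% and 0.0169%). Because the rule used these lists, nothing is read from these shares. By group means 223 regions were wider with ab239364 and 222 with CST2316S, the exception being the region of SRSF2 and MFSD11 at 0.929-fold.

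The regions differed widely in how much they grew. The width ratio used from here on is the treated mean over the DMSO mean, as the geometric mean of both antibodies. Its median was 3.01, from 1.20 to 22.7, with 164 regions at 2 or more and 60 at 4 or more. With ab239364 alone it ran from 1.18 to 25.5 and with CST2316S from 0.929 to 20.2. Across the 223 regions the ratios of the 2 antibodies had a Spearman correlation of 0.349, as a description only, since the antibodies share treatment and regions. Regions wide after DMSO had the lower ratios (Spearman −0.375 with ab239364 and −0.396 with CST2316S, n = 223), a relation in which the DMSO width enters both measures.

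By place in the annotation, regions at coding-gene starts had a median ratio of 2.19, those at lncRNA starts 3.83, those inside genes 3.62 and those between genes 3.11. These medians differed more with ab239364, which gave 2.33 at coding-gene starts, 5.47 at lncRNA starts, 4.87 inside genes and 4.09 between genes. With CST2316S they were 2.21, 2.27, 2.63 and 2.16, so that regions between genes were not above coding-gene starts. Every one of the 36 regions inside genes was at 2 or more, against 72 of the 124 at coding-gene starts. Among the regions counted at starts, the 21 histone regions had a median of 1.74 (1.20 to 2.23), with 5 at 2 or more. The 13 B-cell regions had 3.74 (1.75 to 9.79), with 12 at 2 or more, and include the IKZF3 region that is not at its start. The order of these 2 groups was alike with each antibody, at 2.03 for histone and 4.43 for B-cell regions with ab239364, and 1.32 and 3.56 with CST2316S. Splicing factors had a median of 1.91 (1.44 to 3.95), ribosomal protein genes 1.57 and small RNA hosts 2.02. These medians describe lists chosen with results in view and carry no test.

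**Figure D2:**
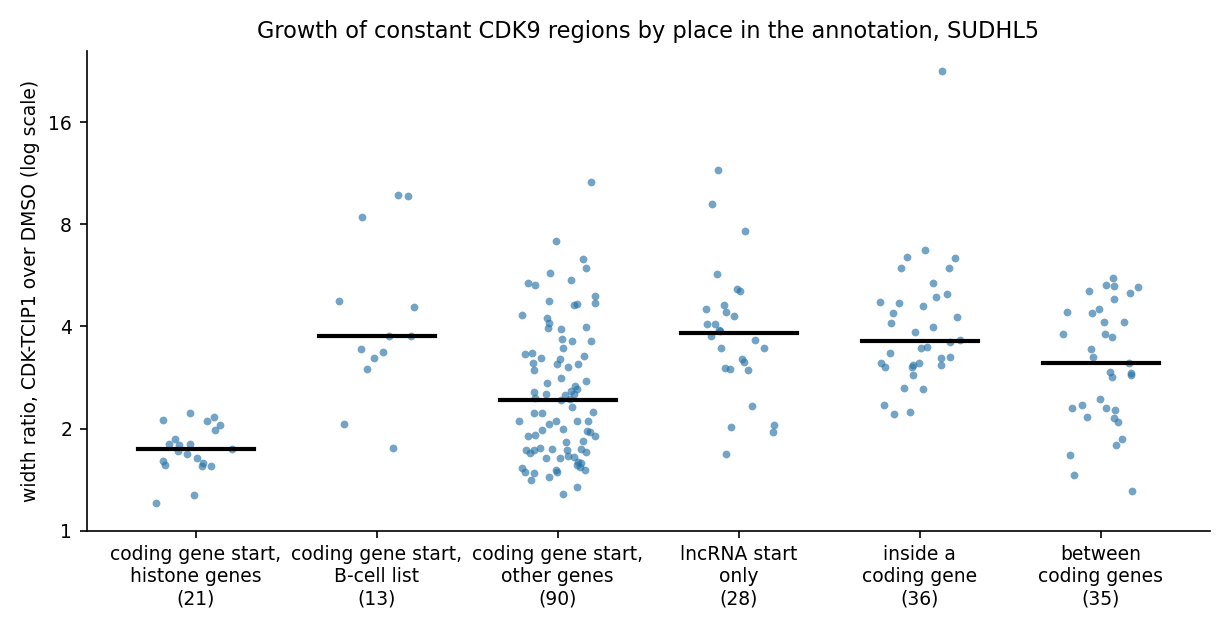
Width ratio of each constant region in SUDHL5, CDK-TCIP1 over DMSO (vertical log scale, 1 point per region), by place in the annotation and for gene groups, with the number of regions in brackets and a line at the median. Histone regions lie between 1.20 and 2.23, and regions inside coding genes reach 22.7.

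The region that grew most lay inside PTPRJ, which encodes a receptor-type tyrosine phosphatase (chr11:48092751-48111680). It was covered over 7.33 and 14.1 kb after CDK-TCIP1, against 0.390 and 0.452 kb after DMSO, with ab239364, and over 18.9 and 18.1 kb against 0.740 and 1.09 kb with CST2316S (ratio 22.7). Both treated lists exceeded both DMSO lists with each antibody. A region at the start of RAD51B-AS1, inside the gene of the recombination factor RAD51B, followed at a ratio of 11.6. The start of ZNF608, a zinc-finger gene, was covered over 9.75 and 16.4 kb after CDK-TCIP1, against 0.382 and 1.26 kb after DMSO, with ab239364, and over 17.9 and 18.9 kb against 2.32 and 2.78 kb with CST2316S (ratio 10.7). A second ZNF608 region, inside the gene at chr5:124644456-124666374, had a ratio of 6.38.

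PAX5 and EBF1, which establish and maintain the B lineage, came next. At the PAX5 start, ab239364 gave 4.78 and 5.30 kb after CDK-TCIP1, against 0.433 and 0.283 kb after DMSO, and CST2316S gave 5.17 and 5.65 kb against 0.954 and 0.637 kb (ratio 9.79). At the EBF1 start, ab239364 gave 6.21 and 7.27 kb against 0.616 and 1.00 kb, and CST2316S gave 8.33 and 8.46 kb against 0.696 and 0.787 kb (ratio 9.71). In both, a DMSO peak of about 1 kb or less sat in a treated domain of over 4 kb. RHOH, whose upstream bases are printed above, had 13.03 and 17.05 kb after CDK-TCIP1, against 0.724 and 0.829 kb after DMSO, with ab239364, and 19.6 and 18.7 kb against 5.78 and 4.69 kb with CST2316S (ratio 8.42). The 10 largest ratios were completed by the lncRNAs LOC105376412 (9.19) and LOC105379158 (7.63), by FOXO1, a forkhead factor of B-cell maturation (7.15), and by a region inside PRKCH, a protein kinase C gene (6.70).

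Other B-cell members spanned the range. CXCR4 had 10.6 and 13.7 kb after CDK-TCIP1, against 1.98 and 2.19 kb after DMSO, with ab239364, and 14.04 and 14.4 kb against 3.68 and 4.30 kb with CST2316S (ratio 4.56). BCL7A was at 4.76, CD79A and S1PR2 both at 3.74, FOXP1 at 3.43, BACH2 at 3.35, MYBL1 at 3.24 and TCF3 at 2.06. The 2 regions of IKZF3 had 3.00 and 1.75, the second being the lowest of the group. They are chr17:39863098-39866593 and chr17:39753626-39760295, at opposite ends of the gene. Of the BCL6-linked genes, BCOR, which encodes a corepressor that BCL6 binds, had 6.33 and TBL1XR1, a subunit of another corepressor complex, 1.96, and CD69, an activation antigen, had 4.32.

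BCL6 itself had a ratio below the median of 3.01 and one of the broadest DMSO peaks. Its region, chr3:187735555-187751978, was covered over 14.3 and 15.1 kb after CDK-TCIP1, against 5.42 and 5.91 kb after DMSO, with ab239364. With CST2316S it was covered over 15.9 and 16.4 kb, against 11.1 and 10.1 kb (ratio 1.99). Between BCL6 and LPP lay the widest region by mean covered width over the 8 lists, chr3:187924809-187988776, at the starts of the lncRNAs LOC105374265 and LINC01991. With ab239364 it had 39.8 and 56.0 kb after CDK-TCIP1, against 5.82 and 10.9 kb after DMSO, and with CST2316S 62.6 and 64.0 kb against 36.7 and 37.0 kb (ratio 3.14). Its neighbour at LOC124906315 was the second widest (ratio 3.89).

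The other regions among the 10 widest, by the same mean, included further genes of B cells. S1PR2 had 13.5 and 18.7 kb after CDK-TCIP1, against 2.69 and 4.58 kb after DMSO, with ab239364, and 20.8 and 21.5 kb against 7.79 and 5.599 kb with CST2316S. PTPRC, which encodes the leukocyte phosphatase CD45, had 10.3 and 20.3 kb against 1.33 and 1.52 kb with ab239364, and 21.01 and 21.2 kb against 8.29 and 7.83 kb with CST2316S (ratio 5.31). A region at chr22:22928146-22940109, 32.0 kb from IGLL5, was nearly full in both CST2316S groups and had a ratio of 1.46. IRAG2 (4.23), RHOH and the ZNF608 region inside the gene were also among the 10. So was the region of TSPOAP1 and the miRNA host MIR142HG (1.96), where ab239364 gave 12.9 and 13.7 kb after CDK-TCIP1, against 4.22 and 8.68 kb after DMSO, and CST2316S gave 10.7 kb in each treated list, against 5.11 and 6.36 kb.

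The TSPOAP1 region holds MIR142, a miRNA of blood cells; both mature forms are printed with the seed, bases 2 to 8, in capitals, from RefSeq at chr17:58331245-58331267 and chr17:58331283-58331303 on the minus strand.
hsa-miR-142-3p: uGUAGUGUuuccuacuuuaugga
hsa-miR-142-5p: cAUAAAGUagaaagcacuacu

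At the low end of the ratios stood histone genes among others. The smallest was that of LOC105369669 and H4C16 (1.20), where ab239364 gave 1.73 and 2.58 kb after CDK-TCIP1, against 1.66 and 1.70 kb after DMSO, and CST2316S gave 1.70 and 2.37 kb against 1.96 and 1.65 kb, so that the groups overlapped with CST2316S. H1-4 and H2BC5 followed at 1.27, ADNP, a chromatin protein gene, at 1.28 and chr14:105859804-105864233, counted as between coding genes, at 1.305. Immunoglobulin gene segments were not counted as genes, so this region may hold some. H1-4 and H2BC5 had 2.49 and 3.77 kb after CDK-TCIP1, against 2.17 and 2.38 kb after DMSO, with ab239364, and 3.74 and 4.17 kb against 3.69 and 3.05 kb with CST2316S. Over the 21 histone regions the mean width was 2.63 ± 0.844 kb after CDK-TCIP1 and 1.20 ± 0.299 kb after DMSO with ab239364, and 3.98 ± 0.312 and 2.93 ± 0.062 kb with CST2316S (SD, n = 2 each). Over the 103 coding-gene start regions without histone genes the means were 4.09 kb after CDK-TCIP1 and 1.34 kb after DMSO with ab239364, and 5.03 and 1.89 kb with CST2316S. The histone means were thus lower than these after CDK-TCIP1 with both antibodies. After DMSO the histone mean was lower with ab239364, by less than the SD between lists, and higher with CST2316S.

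Peaks widened on both sides of the gene start. In 92 regions a coding-gene start lay within 1 kb of the best CDK9 summit, and 19 of these held starts on both strands. There ab239364 covered 1.31 kb upstream after CDK-TCIP1 against 0.395 kb after DMSO, and 1.73 kb downstream against 0.765 kb. CST2316S covered 1.70 kb upstream against 0.675 kb, and 2.06 kb downstream against 1.04 kb. The added length was 0.915 kb upstream and 0.965 kb downstream with ab239364, and 1.02 kb on each side with CST2316S. Mean cover was longer downstream in all 8 lists.

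**Figure D3:**
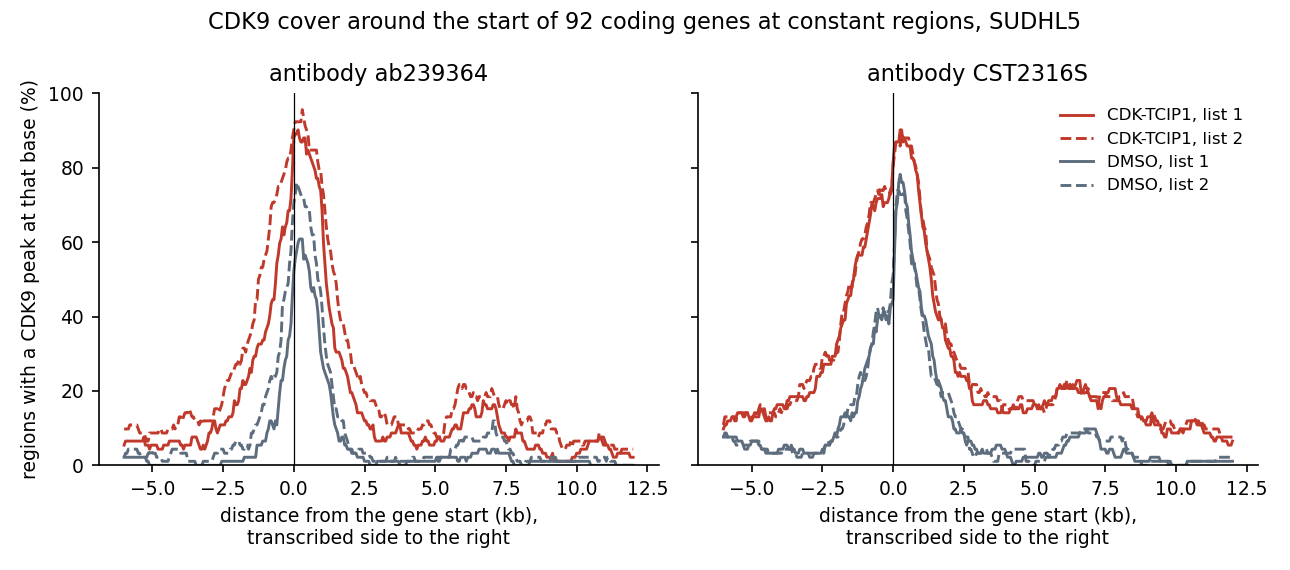
Share of 92 constant regions with a CDK9 peak at each distance from the coding-gene start (horizontal axis in kb, transcribed side to the right), 1 line per list, for each antibody. The CDK-TCIP1 lines lie above the DMSO lines on both sides, where the mean treated cover is 1.31 to 1.70 kb upstream and 1.73 to 2.06 kb downstream.

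Much of the added CDK9 cover lay on bases that carried Ser5P polymerase after DMSO, more of it with ab239364 than with CST2316S. For scale, the Ser5P DMSO lists covered 1073 and 908 kb of the 1491 kb that the constant regions span. Bases covered in both treated lists and in neither DMSO list summed to 484 kb with ab239364 and 612 kb with CST2316S. Of these, 86.7% and 57.5% lay under a Ser5P peak of either DMSO list, against 99.7% and 95.4% of the bases held in both DMSO CDK9 lists and 53.9% and 36.9% of the treated bases of treated-only regions. Ser2P peaks of DMSO covered 58.4% and 34.8% of the added bases, and Pol II peaks of DMSO 23.1% and 11.1%. CDK9 peaks of KARPAS422 after DMSO covered 69.5% and 45.5%. Added bases at coding-gene starts lay under Ser5P more often (92.3% and 69.7%) than those of other constant regions (83.1% and 47.9%). Bases next to each other are not independent, and these shares carry no test.

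KARPAS422, whose lists the rule did not use, had CDK9 at most of the same places. A peak in all 4 of its lists was found at 185 of the 223 regions (83.0%), against 18.8% of all merged SUDHL5 regions and 32.2% of the treated-only regions. Within 500 bases around the best summit, windows of equal length for all regions, the shares were 79.4% and 16.9%. Regions at coding-gene starts were held in all 4 lists more often (89.5%) than the other constant regions (74.7%). Widths in the lines went together across the 223 regions, with Spearman correlations of 0.610 after CDK-TCIP1 and 0.484 after DMSO for CST2316S, which share region length.

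**Figure D4:**
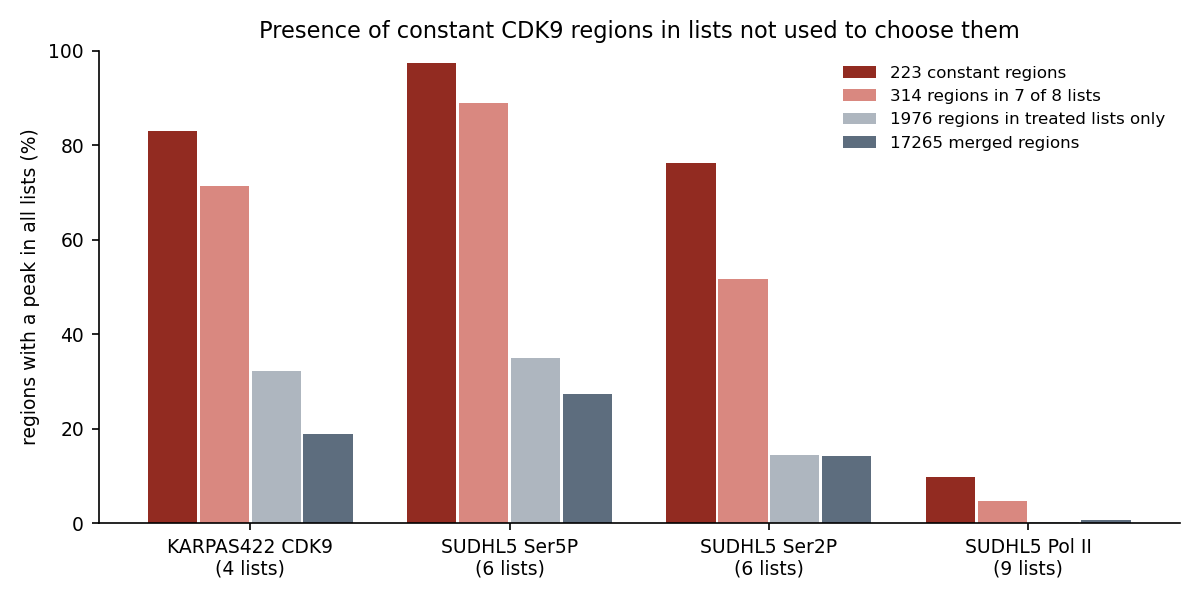
Share of regions with a peak in all lists of KARPAS422 CDK9, SUDHL5 Ser5P, Ser2P and Pol II (vertical axis, %), as bars for the constant regions, the regions with a peak in 7 lists, the treated-only regions and all merged regions. The constant regions are highest for every target, at 83.0, 97.3, 76.2 and 9.87%.

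In 20 constant regions KARPAS422 had no peak in any list (background 50.7% of all merged regions). The widest was the CXCR4 start, which SUDHL5 covered over 10.6 to 14.4 kb after CDK-TCIP1 and 1.98 to 4.30 kb after DMSO. Next by width came LOC105375955, a region inside TBL1XR1 (chr3:177139813-177148548), LOC105379158, a region inside BICC1, chr7:142805397-142812696, LOC124904045, the H2BC13 cluster, a region inside SGK1 and chr1:104927096-104933589. The chr7 and chr1 regions were counted as between coding genes, a count that left out T-cell receptor gene segments. A SGK1 region, with its own start, was also without a KARPAS422 peak.

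In KARPAS422 the widths with and without CDK-TCIP1 overlapped. Mean cover per constant region was 4.11 and 3.35 kb after CDK-TCIP1, against 3.27 and 3.70 kb after DMSO (3.73 ± 0.540 and 3.49 ± 0.306 kb, SD, n = 2 each). The groups overlapped, and the ratio was 1.07 where over all merged regions it was 1.48. Without the first treated list it was below 1 (−0.06 on the log2 scale). Of 203 regions with a peak, 61 were wider in both treated lists than in both DMSO lists (background 39.6%) and 32 were narrower (background 5.0%). The KARPAS422 DMSO lists, with 6689 and 7804 peaks, were much longer than those of SUDHL5, and their part in this was not tested.

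Members of the gene groups split in KARPAS422, where 39.6% of all regions with a peak were wider and 5.0% narrower. Of the 12 B-cell regions with a peak there, 8 were wider (FOXP1, RHOH, MYBL1, PAX5, BCL7A, TCF3, CD79A and 1 of IKZF3) and 1, the other IKZF3 region, was narrower. RHOH had 17.9 and 17.4 kb after CDK-TCIP1, against 12.2 and 12.4 kb after DMSO, and PAX5 had 5.62 and 5.23 kb against 4.42 and 4.96 kb. BCL6 was wider too, with 14.8 and 14.5 kb against 13.6 and 13.5 kb, and BCOR had 6.45 and 5.41 kb against 2.30 and 2.38 kb. EBF1, by contrast, had 8.33 and 7.18 kb against 7.03 and 7.93 kb, so that the groups overlapped. Of the 5 small RNA hosts none was wider and 4 were narrower, of the 4 ribosomal protein genes 3 were narrower (RPLP0, RPS15 and RPL13A), and of 19 histone regions 2 were wider and 2 narrower. The second IRAG2 region (chr12:25013037-25027222), which had the best mean rank by q over the 8 SUDHL5 lists, had 2.60 and 1.79 kb after CDK-TCIP1, against 5.86 and 6.33 kb after DMSO in KARPAS422.

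For the 185 regions held in all KARPAS422 lists, the KARPAS422 width ratio had a median of 1.03 (0.268 to 3.34), with 102 above 1, 82 below and 5 at 2 or more. The SUDHL5 ratio with the same antibody had a median of 2.29 (0.929 to 20.2), with 108 at 2 or more, and it was the larger of the pair in 177 regions. The SUDHL5 values come from lists the rule used, so the difference between the lines was not tested.

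**Figure D5:**
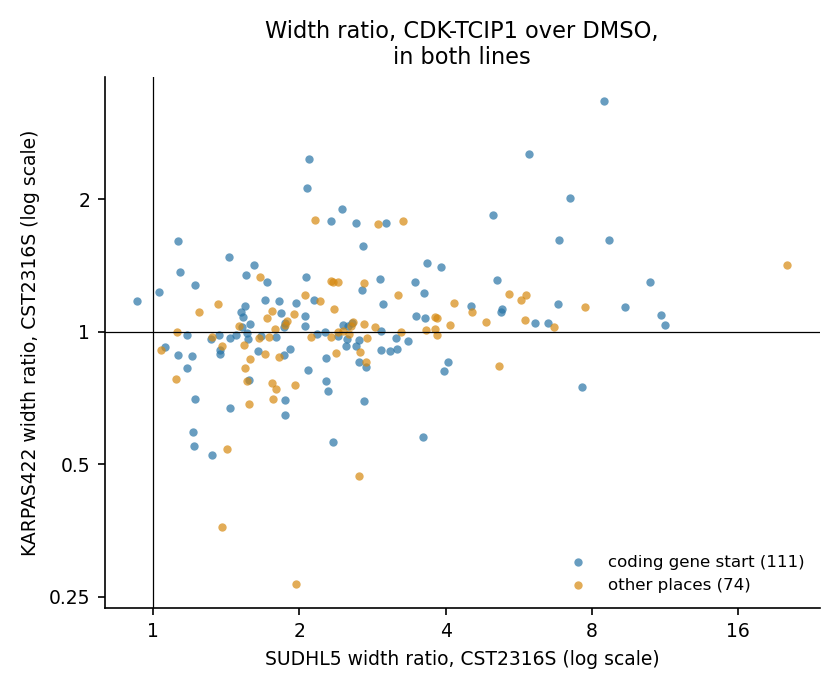
Width ratio with CST2316S, CDK-TCIP1 over DMSO, in SUDHL5 (horizontal log scale) and KARPAS422 (vertical log scale), 1 point per region for the 185 constant regions with a peak in all KARPAS422 lists, coloured by whether the region holds a coding-gene start. Points spread from 0.929 to 20.2 along the SUDHL5 axis and from 0.268 to 3.34 along the KARPAS422 axis, with medians of 2.29 and 1.03.

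Polymerase marked nearly every constant region. Ser5P peaks were present in all 6 lists at 217 regions (97.3%), against 27.3% of all merged regions, and in at least 1 list at all 223. Ser2P peaks were in all 6 lists at 170 regions (76.2%; background 14.1%) and in at least 1 at 221, the exceptions being regions on chromosomes 8 and 14 that lie away from coding-gene starts. Pol II peaks were in all 9 lists at 22 regions (9.87%; background 0.62%) and in at least 1 at 198. Without the Pol II list of 138 peaks, 33.2% were in all the others. At coding-gene starts Ser2P was in all lists at 95.2% of regions, against 52.5% of the other constant regions, and Pol II at 15.3% against 3.03%.

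Polymerase cover of the regions was read from lists the rule did not use. Ser5P covered 4.61 and 3.83 kb per region after 2 h of CDK-TCIP1 and 4.07 and 3.88 kb after 4 h, against 4.81 and 4.07 kb after DMSO. The 2 h group overlapped DMSO (ratio 0.9496, and 1.11 over all merged regions). The 4 h group lay just below it (0.897, and 0.949 over all merged regions). Ser2P covered 1.64 and 2.69 kb after 2 h and 2.99 and 2.64 kb after 4 h, against 3.03 and 2.96 kb after DMSO. The 2 h lists were both below DMSO (0.702, and 0.707 over all merged regions). The 4 h lists overlapped it (0.937, and 1.08 over all merged regions). Pol II covered 0.646, 1.60 and 0.804 kb after 2 h and 0.0910, 1.35 and 0.632 kb after 4 h, against 0.504, 1.61 and 0.821 kb after DMSO. The Pol II groups overlapped at both times. Over all merged regions the ratios of geometric means were 1.34 at 2 h and 0.516 at 4 h. Over the constant regions they were 1.08 and 0.489, the second being −1.03 on the log2 scale. The 4 h value moved with the list of 138 peaks, without which it was 0.08 on the log2 scale. That list carries replicate number 1. Treated minus DMSO lists of equal number gave log2 differences of −2.47, −0.25 and −0.38 at 4 h, and with number 1 left out of both groups the difference was −0.31.

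By single regions, narrower Ser5P and Ser2P cover was more frequent than wider cover. For Ser5P at 2 h, 22 of 223 regions were wider in both treated lists than in both DMSO lists (background 25.0%) and 39 narrower (6.14%), and at 4 h 20 were wider (14.2%) and 65 narrower (12.5%). For Ser2P at 2 h, 5 of 219 were wider (2.65%) and 80 narrower (14.8%), and at 4 h 47 of 221 were wider (19.9%) and 58 narrower (9.46%). The narrower share was above the background in all 4 comparisons. The wider share was below it for Ser5P at both times and near it for Ser2P (2.28% at 2 h and 21.3% at 4 h). A region can be narrower only with a peak in both DMSO lists. For Ser5P these lists had peaks at 100% and 98.7% of constant regions, against 44.1% and 35.8% of all merged regions. The backgrounds are thus not like for like, and the same holds for the KARPAS422 calls above. The 2 h and 4 h comparisons share their DMSO lists and are not independent. For Pol II at 2 h, 2 regions of 197 were wider (2.23%) and 1 narrower (0.21%), and at 4 h 0 of 193 were wider (0.0%) and 2 narrower (0.536%).

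Within the constant regions, narrowing was more frequent away from coding-gene starts. Ser5P at 4 h was narrower at 42 of the 99 regions elsewhere and at 23 of the 124 at coding-gene starts. For Ser2P at 2 h the counts were 49 of 95 and 31 of 124. The shares over all merged regions given above were not split by place. Whether this difference is particular to constant regions was therefore not tested. The widest region, at LOC105374265 and LINC01991, was among the narrower regions for Ser2P. Its Ser2P cover was 7.13 and 12.0 kb after 2 h of CDK-TCIP1 and 18.8 and 12.7 kb after 4 h, against 27.5 and 24.4 kb after DMSO. Its CDK9 cover over the same bases was higher after CDK-TCIP1 with both antibodies, as given above. The region inside TBL1XR1 had Ser5P over 1.46 and 0.880 kb after 2 h and no peak after 4 h, against 2.92 and 2.60 kb after DMSO. The S1PR2 start had Ser2P over 7.38 and 9.43 kb after 2 h and 10.9 and 9.82 kb after 4 h, against 13.5 and 12.5 kb after DMSO.

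A smaller set went the other way, among them the BCL6 gene. Its Ser2P cover was 11.3 and 12.2 kb after 2 h of CDK-TCIP1 and 12.2 and 12.4 kb after 4 h, against 10.8 and 11.2 kb after DMSO, and its Ser5P cover was 15.5 and 14.7 kb and 14.1 and 14.05 kb, against 13.9 and 12.2 kb. All 8 treated values lay above their DMSO values. At the ZNF608 start Ser2P covered 0.793 and 3.30 kb after 2 h and 4.11 and 5.16 kb after 4 h, against 0.741 and 0.740 kb after DMSO. RHOH had Ser2P over 3.42 and 9.43 kb after 2 h, which spans its DMSO values of 7.57 and 7.06 kb, and over 11.1 kb in each list after 4 h.

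EBF1 joined them for Ser5P, with 8.14 and 7.79 kb after 2 h and 7.85 and 8.21 kb after 4 h, against 6.71 and 4.54 kb after DMSO. It had Pol II peaks over 0.516, 1.49 and 1.98 kb after 2 h and over 0, 1.39 and 0.978 kb after 4 h, and none in the 3 DMSO lists. Among the 13 B-cell regions Ser2P at 4 h was wider at 4 (CXCR4, RHOH, EBF1 and BCL7A) and narrower at 5 (BACH2, MYBL1, S1PR2 and both IKZF3 regions), so that the group had no single direction. Of the 21 histone regions 9 were wider for Ser2P at 4 h and 1 narrower. Over all regions with a Ser2P peak the shares were 19.9% wider and 9.46% narrower. At H3C1 and H4C1, for example, Ser2P covered 0.694 and 2.12 kb after 2 h and 3.07 and 3.03 kb after 4 h, against 1.48 and 1.98 kb after DMSO.

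Ser5P filled or nearly filled some members. At the TSPOAP1 and MIR142HG region Ser5P covered all 14.363 kb in the 6 lists, and its Ser2P cover was 12.1 and 14.2 kb after 2 h and 14.3 and 13.7 kb after 4 h, against 14.3 kb in each DMSO list. The lncRNA MALAT1, abundant in nuclear speckles, had Ser5P over 5.34 to 5.64 kb after CDK-TCIP1 and 5.83 kb in each DMSO list. NEAT1, the scaffold of paraspeckles, had CDK9 over 10.4 and 12.5 kb after CDK-TCIP1, against 2.79 and 0.626 kb after DMSO, with CST2316S (ratio 5.10 over both antibodies), while its Ser5P cover was 12.7 to 13.98 kb after CDK-TCIP1 and 14.4 kb in each DMSO list. Cover cannot exceed the merged region, so a region that a mark fills can show a loss of that mark's width but no gain.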

How the data were processed

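The authors deposited 33 peak lists for 43 samples; the input libraries had no list of their own. Per the submitters' processing notes, reads were handled with Bowtie2, SAMtools and Picard and peaks came from MACS2, with builds hg38 and dm6 named; versions, control libraries and thresholds are not given there. Drosophila chromatin was added to CDK9 samples, per the labels, and no value scaled to it was used. The deposited fold enrichment is a ratio over a list's own background, and the deposited −log10 p and −log10 q (lowest q value 1.30) are the authors' own; they ranked and filtered peaks within a list only. Of 286536 peaks, 25 on unplaced contigs were left out. CDK9 DMSO samples were taken as 2 h, following the labels, although their file names read 0 h. The second CDK9 antibody is CST2316S in the titles, and the protocol orders its digits differently.

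Regions were merged by overlapping bases with Python 3.11.15, NumPy 2.4.6 and pandas 2.3.3, checked on simulated lists and against bedtools. Genes and sequences are RefSeq GRCh38.p14 (19974 coding genes, 34961 start windows). Both ends of a gene without a start window were taken as starts, and immunoglobulin and T-cell receptor gene segments were left out. A region was called wider or narrower where every CDK-TCIP1 list lay above or below every DMSO list. With 2 lists a group an exact two-sided permutation test over lists cannot go below p = 0.333, and with 3 lists below 0.1. No p-value of that test is therefore given for means over regions. Only the replicate-block check at the end prints p-values for such means, and its Pol II pairing was chosen from correlations in these same lists. Named regions were BCL6, the 10 widest by mean covered width over the 8 lists, the 10 largest and 5 smallest ratios, the 5 best ranks, members of the gene lists and up to 10 with no KARPAS422 or polymerase peak; others were named after their values were seen. A few items chosen this way are left out of the text. The members, lists and rules were chosen with earlier results of these data known. Pol II lists of one replicate number deviated together (correlations across regions of 0.383, 0.339 and 0.200 at 2 h, and 0.216, 0.224 and 0.134 at 4 h), so their numbers were taken to pair samples. Stricter q, equal list lengths, 50% cover, wider windows, summits, shares of list bases, replicate blocks and leaving out lists were tried.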

Additional observations from a re-analysis of the deposited data

How the results depend on the processing

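The constant count was 123 with −log10 q of at least 5, 62 when every list was limited to its top 915 peaks, 2 with 50% cover, and 223 to 433 when each list was left out. The CST2316S width ratio was 2.89 by the widest peak, 2.56 at the stricter q and 1.95 at equal list length, and 2.22 to 2.40 without each list; for ab239364 it was 3.02 to 4.72. On the log2 scale the KARPAS422 cover difference was −0.63 as a share of list bases and −0.056 to 0.24 without each list. Ser5P at 2 h was 0.0065 by share of regions with a peak and −0.21 to 0.060 without each list, and at 4 h 0.019 as a share of list bases and −0.28 to −0.04 without each list. Ser2P at 2 h was 0.63 as a share of list bases and −0.87 to −0.15 without each list, and at 4 h 0.014 by share with a peak, 0.30 as a share of list bases and −0.18 to −0.00 without each list. Pol II at 2 h was −0.067 at equal list length, −0.38 as a share of list bases and −0.29 to 0.55 without each list; at 4 h it was −1.86 to 0.082. The cause of these shifts was not tested. The share held in all KARPAS422 lists was 48.9% with 50% cover. For Ser5P it was 61.9%, 92.8% at the stricter q and 93.3% at summits, for Ser2P 27.4%, 61.4% and 60.5% (76.2 to 87.0% without each list), and for Pol II 0.897% and 6.28% (9.87 to 33.2%). In 111 other settings differences kept their direction, and counts, ratios and shares moved by less than 1.5 times, 1 SD between lists or the exact 95% interval. Shares of list bases, summits, crossed pairs and blocks without 1 number were added after the data were seen.

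With the replicate number as a block, the Pol II differences at 2 h and 4 h kept their values of 0.11 and −1.03 (log2), with exact sign permutation p of 1 and 0.25, the smallest that 3 pairs allow. With 1 number left out of both groups they were −0.019 (without number 1) to 0.18 at 2 h and −1.42 to −0.31 at 4 h. KARPAS422 (correlation of equal numbers 0.068, p of 1), Ser5P and Ser2P (p of 0.5 each) share only a number. For ab239364, equal numbers correlated at −0.145: 218 regions were wider in both pairs of equal number and 217 in both crossed pairs. Without read totals, depth limits are unknown, and an absent peak may be one that a short list missed.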
